A study of Mus musculus with 3 samples.

Results

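A small population of thymocytes in the DN sorts carried T cell receptor α and NK receptor transcripts together with transcripts of interferon-induced genes, and 276 such cells were found among the 2969 cells that shared the receptor transcripts. A cell entered the base gate when it held at least 1 unique molecular identifier (UMI) of Trac, the constant gene of the T cell receptor α chain, and at least 2 UMIs summed over Klrk1, Klrd1 and Klrb1c, which encode the NK receptors NKG2D, CD94 and NK1.1. A base-gate cell was a member when Ifit1, Ifit3 and Isg15 summed to at least 3 UMIs, and it was a comparison cell when they summed to 0. There were 101 members and 1525 comparison cells in the second run, and 175 members and 607 comparison cells in the third run. The first run had 4 base-gate cells and 0 members and entered no comparison. Since the measured values of these cells chose the members, the differences below are descriptions and no difference was tested.

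All libraries were made by 10x single-cell RNA sequencing from C57BL/6 mice at week 6 of age, with 4 thymi pooled for each library and CD4- and CD8-bearing cells depleted before sorting. The second run was sorted for the DN1 and DN2 stages, and cells bearing TCRγδ, TCRβ, NK1.1, B220, CD11c or CD11b on the surface were discarded. The third run mixed 3 sorts after collection, one of DN1 with DN2 cells, one of DN3 cells and one of TCRγδ+ cells. Each run gave 1 library and the runs differed in the cells they held, so they are shown side by side and are not replicates. NK1.1+ and TCRβ+ cells were removed by surface protein, whereas the base gate reads transcripts, among them that of NK1.1.

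Interferons signal through the Janus kinases to transcription factors that bind a repeat of the bases GAAA, the interferon-stimulated response element, and switch on genes that block viral entry, RNA translation and viral release. ISG15 is a ubiquitin-like protein, and IFIT1 and IFIT3 belong to a family of interferon-induced proteins, of which IFIT1 binds viral RNA. In the thymus, T cells with NK receptors include invariant NKT cells and other innate-like T cells, and interferon responses are also seen in thymocytes without infection.

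The rule genes themselves show what chose the cells. The promoters of all 3 hold matches to the element, printed here in capitals because these genes define the population, with Bst2 as the marker gene that the rule did not use and Ifi208 as an example among the genes that were higher in members. The letters searched were GAAANNGAAA and, for the other strand, TTTCNNTTTC, where N is any base and matches may overlap, within 250 bases before the RefSeq start site (RefSeq, GRCm38.p6). Each line gives the strand of the gene, 5′ to 3′.
Ifit1, chr19:34640765-34640833, plus strand: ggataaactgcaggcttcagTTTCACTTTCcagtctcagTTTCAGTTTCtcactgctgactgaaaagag
Ifit3, chr19:34583353-34583436, plus strand: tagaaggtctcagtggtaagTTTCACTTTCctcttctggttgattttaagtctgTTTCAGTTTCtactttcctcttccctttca
Isg15, chr4:156200855-156200916, minus strand: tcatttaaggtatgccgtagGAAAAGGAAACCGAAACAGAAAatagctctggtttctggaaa
Bst2, chr8:71537567-71537622, minus strand: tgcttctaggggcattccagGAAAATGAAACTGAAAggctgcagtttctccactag
Ifi208, chr1:173673587-173673636, plus strand: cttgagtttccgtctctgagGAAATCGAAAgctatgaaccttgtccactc

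The matches in Ifit1 lie between 104 and 76 bases before the start, those in Ifit3 between 156 and 113, and the 3 overlapping matches in Isg15 between 78 and 57. In Bst2, a pair of overlapping matches lies between 130 and 115 bases before the start. Over all 32851 promoters in the table, 2.98% held a match, so the letters alone occur in many genes that are not interferon genes. A match is a description of the sequence and does not show a bound site.

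The rule genes were at 717 CPM (counts of a gene per 1000000 UMIs summed over the cells of a set) for Ifit1, 608 CPM for Ifit3 and 701 CPM for Isg15 in members of the second run, and at 256, 500 and 505 CPM in those of the third. They were at 0 in comparison cells by construction.

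Members and comparison cells were sequenced to a similar depth per cell. In the second run, members held a median of 2620 UMIs and 1092 genes per cell and comparison cells 2780 UMIs and 1107 genes. In the third run, the medians were 5656 UMIs and 1983 genes in members and 6038 UMIs and 2071 genes in comparison cells. Median mitochondrial shares were 3.19% and 3.10% in the second run and 2.92% and 2.91% in the third.

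Within the members, the summed UMIs of Ifit1, Ifit3 and Isg15 had a median of 6 in both runs and reached 26 in the second and 62 in the third. All 3 genes were seen in 60 of 101 and 85 of 175 members, and 12 and 20 members passed through 1 gene alone. Just inside the threshold, 20 and 36 members held exactly 3 UMIs, and just outside it 63 and 69 base-gate cells held exactly 2 UMIs. Among the NK receptor transcripts, Klrd1 was seen in 94 of 101 members in the second run and Klrk1 in 69 and Klrb1c in 56. In the third run, Klrd1 was seen in 141 of 175 members, Klrk1 in 123 and Klrb1c in 122. The first run shared 72 barcodes with the second and 3 with the third, the second and the third shared 0, and no shared barcode was that of a member.

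Members made up 5.25% (95% interval 4.30 to 6.35, exact Clopper-Pearson, counting error only) of the base gate in the second run and 16.7% (14.5 to 19.1) in the third. The third run was deeper, and the rule reads raw UMIs. When each cell was thinned to 2000 UMIs, 4.16% (3.31 to 5.15) and 7.27% (5.77 to 9.01) of base-gate cells had 3 or more UMIs of the rule genes. Outside the base gate, the thinned share had an interval of 0.865% to 1.37% in the second run and 1.62% to 2.32% in the third. In cells outside the gate with at least 2 UMIs of Ptcra, which encodes the pre-T cell receptor α chain, it was 0.930% and 0.875%. The sort, the mice and the library differ between the runs, and their parts in the difference between runs cannot be told apart.

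Some single cells carried a large part of a level and have to be named before the results. A single second-run member held 22311 UMIs, of which 12653 (56.7%) came from the immunoglobulin genes Igha, Igkc and Jchain that plasma cells express at high level, together with 9 UMIs of Trac, 3 of the NK receptors and 4 of the rule genes. It supplied 5.77% of all UMIs of the second-run members and 82 of their 83 UMIs of Cd74, the invariant chain of MHC class II. In the third run, a comparison cell with 20314 immunoglobulin UMIs among 32445 stood on the other side of the comparison. The levels of Igha, Igkc and Jchain, and that of Cd74 in second-run members, are therefore mostly those of single cells and are not read as levels of the population. Without base-gate cells that held over 100 UMIs of these 3 immunoglobulin genes, 43 genes were higher in members by the rule given next, and all 43 were among the 43 found with them.

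Levels are given as CPM of the UMIs summed over the cells of a set, with exact Poisson 95% intervals for counting error. A gene was eligible when it reached 20 CPM over all base-gate cells in both runs, and it was called higher or lower when its CPM in members and comparison cells differed at least 2-fold in both runs. Of 4428 eligible genes outside the rule, 43 were higher in members (0.971% of those tested) and 1 was lower (0.0226%). Without the limit on low levels, 12738 genes were eligible, of which 239 were higher and 933 lower, which turned the balance. At this setting, a gene with UMIs in comparison cells and none in members of both runs counted as lower. Members had fewer summed UMIs than comparison cells in both runs, so genes with few UMIs could be called lower through counting error. How many of the 933 were of this kind was not counted. The lower genes numbered 18 with cells thinned to 2000 UMIs and 31 (with 84 higher) at a fold of 1.5, of 4428 eligible genes in each case. Among the eligible genes of the second run alone, 87 (1.96%) were higher and 116 (2.62%) lower, and in the third alone 52 (1.17%) and 22 (0.497%). Among eligible genes, the lower genes of either run were thus almost never shared between runs, while most of the genes higher in the third run were. Of the 43 genes, 29 were in the lists of IFIT and ISG15-system genes, antiviral effectors, nucleic acid sensors and transcription factors of the interferon response, and 7 in the list of guanylate binding proteins and immunity related GTPases. The remaining 7 were Ly6a and Cd69 of the homing and memory list, and Pml, Rnf213, Trafd1, Trim12c and Trim34a, which were in no list. These counts come from the cells the rule chose, so they describe the members and do not test them.

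**Figure D1:**
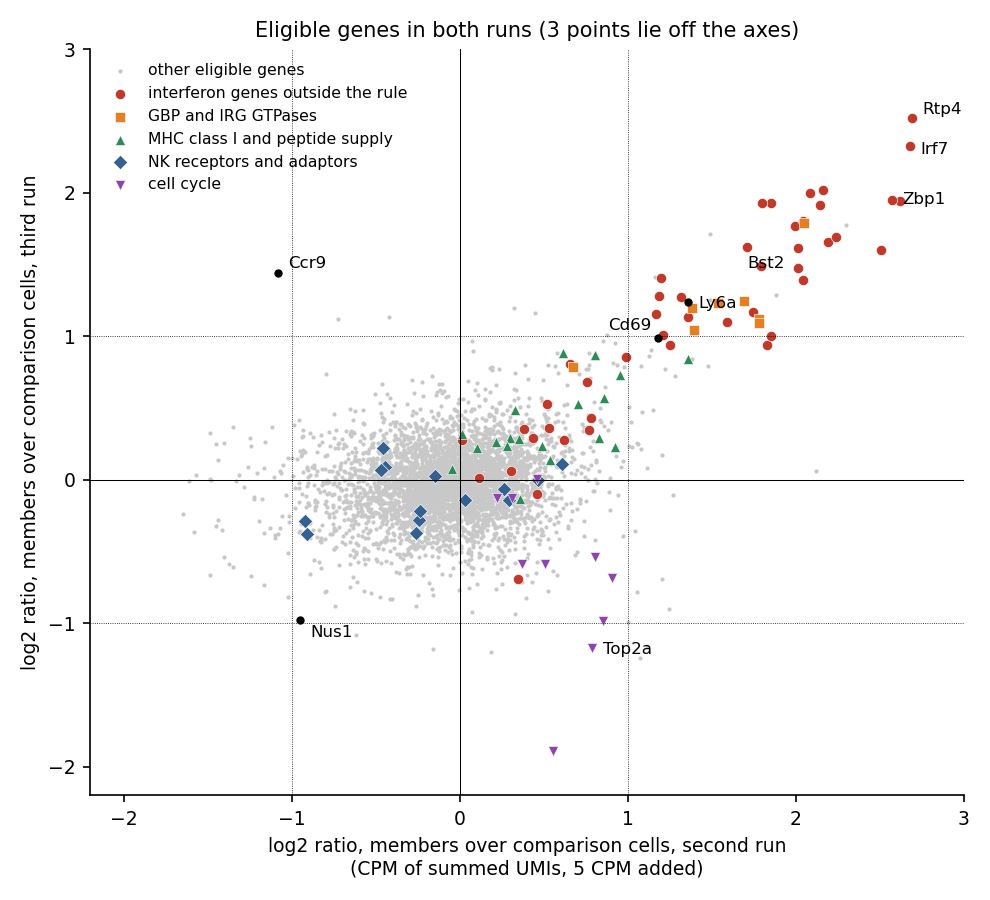
Log2 ratio of CPM in members over comparison cells, with 5 CPM added to both levels, in the second run (horizontal axis) and the third run (vertical axis), with 1 point for each eligible gene outside the rule and dotted lines at a 2-fold ratio. Interferon genes and GTPases fill the upper right, NK receptor genes lie near 0, cell cycle genes lie to the right of 0 in the second run and mostly below 0 in the third, and the points of Igha, Igkc and Jchain lie off the axes.

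Among the 92 genes of the 4 interferon lists outside the rule, 89 were measured in both runs, 45 were eligible and 29 were called higher, with 0 called lower. Their median log2 ratio, with 5 CPM added to each level, was 1.59 in the second run and 1.17 in the third, beside -0.04 and -0.02 over all eligible genes. Herc6, the mouse ligase that attaches ISG15, was the 1 called gene of the 2 eligible ones in the IFIT and ISG15 list (5.57-fold and 4.54-fold). The eligible genes were above 0 in 45 of 45 cases in the second run and 43 of 45 in the third. The filter keeps genes with a minimum level over all base-gate cells, members included, and several genes that were close to 0 in comparison cells did not pass it. Of the 43 genes called higher, 7 were under 20 CPM in comparison cells of a run (Gbp9, Herc6, Parp9, Parp14, Pml, Rnf213 and Trim34a). Of these, Herc6, Parp9 and Trim34a were under 20 CPM over all base-gate cells other than members in a run, so they were eligible only with the members counted, and the other 40 reached the filter without them.

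Among the eligible transcription factors, Irf7 had the largest ratio in both runs. Irf7, which drives interferon genes and is itself induced by interferon (chr7:141262706-141266481, minus strand, GRCm38), was at 290 CPM (239 to 349) in members and 41.1 CPM (35.7 to 47.0) in comparison cells of the second run. In the third run, it was at 226 CPM (200 to 254) and 41.0 CPM (35.3 to 47.5). The ratios were 7.06-fold (5.57 to 8.92) and 5.50-fold (4.54 to 6.68). Irf9, a DNA-binding factor of the interferon response, was at 72.5 and 28.7 CPM in the second run and at 110 and 38.3 CPM in the third. In neither run did the counting intervals of members and comparison cells overlap for Irf7 or Irf9. These intervals leave out variation between cells, and the share of all eligible genes without overlap was not counted, so this is a description only. The poly(ADP-ribose) polymerases Parp9, Parp10 and Parp14 and the ubiquitin ligase Dtx3l were also called higher, between 2.14-fold and 5.54-fold. Irf1, Irf2, Nmi and Stat3 were among the 6 eligible factors that were not called, with ratios of 1.37-fold, 1.47-fold, 1.73-fold and 1.01-fold in the second run and 1.24-fold, 1.46-fold, 1.64-fold and 1.22-fold in the third. The other uncalled factors, Irf3 and Irf8, were above 1 in the second run (1.42-fold and 1.33-fold) and below it in the third (0.926-fold and 0.544-fold).

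Of the antiviral effectors, 15 of the 22 eligible ones were called. Rtp4, an interferon-induced receptor transport protein, had the largest ratio among the eligible genes outside the rule, ranked by the run in which it was smaller. It was at 298 CPM (246 to 357) and 41.8 CPM (36.4 to 47.8) in members and comparison cells of the second run, and at 221 CPM (195 to 249) and 34.4 CPM (29.2 to 40.4) in those of the third. Its ratios were 7.12-fold (5.63 to 8.96) and 6.41-fold (5.23 to 7.88). Bst2, which encodes tetherin, a protein that holds virus particles at the cell surface, was at 523 and 126 CPM in the second run and at 267 and 93.0 CPM in the third, ratios of 4.15-fold (3.53 to 4.87) and 2.87-fold (2.47 to 3.33). Isg20, an exonuclease of RNA, was at 285 and 42.0 CPM and at 209 and 50.9 CPM, and Zbp1, a sensor of Z-form nucleic acid, at 277 and 42.4 CPM and at 189 and 45.2 CPM. Ifi27l2a was at 1511 and 370 CPM and at 1156 and 374 CPM. Slfn1, Xaf1, Trim30a, Phf11b, Ifitm3, Samd9l, Samhd1, Ifi35, Lgals3bp and Slfn8 were also called. Each of them was between 2.06-fold and 6.43-fold higher in both runs.

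Bst2 was also at a high level outside the base gate. Cells with at least 2 Ptcra UMIs held Bst2 at 280 CPM (267 to 293) and 293 CPM (285 to 302) in the second and the third run, while members were at 523 CPM (453 to 600) and 267 CPM (239 to 298). Among cells thinned to 2000 UMIs, a Bst2 UMI was seen in 61.4% of members, 20.6% of comparison cells and 44.5% of Ptcra cells in the second run, and in 35.4%, 13.8% and 44.1% in the third. For Irf7, the same shares were 44.6%, 8.46% and 3.49% in the second run and 35.4%, 9.39% and 3.06% in the third. The share of cells with Irf7 was therefore highest in members in both runs, and the share with Bst2 was highest in members in the second run and in Ptcra cells in the third. Klrk1, the remaining marker of the label, was at 585 and 643 CPM in members and comparison cells of the second run and at 433 and 371 CPM in those of the third, and at 4.01 and 1.86 CPM in Ptcra cells. Klrk1 is a gene of the base gate and the Ptcra cells lie outside that gate, so this low level is largely set by the rule.

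**Figure D2:**
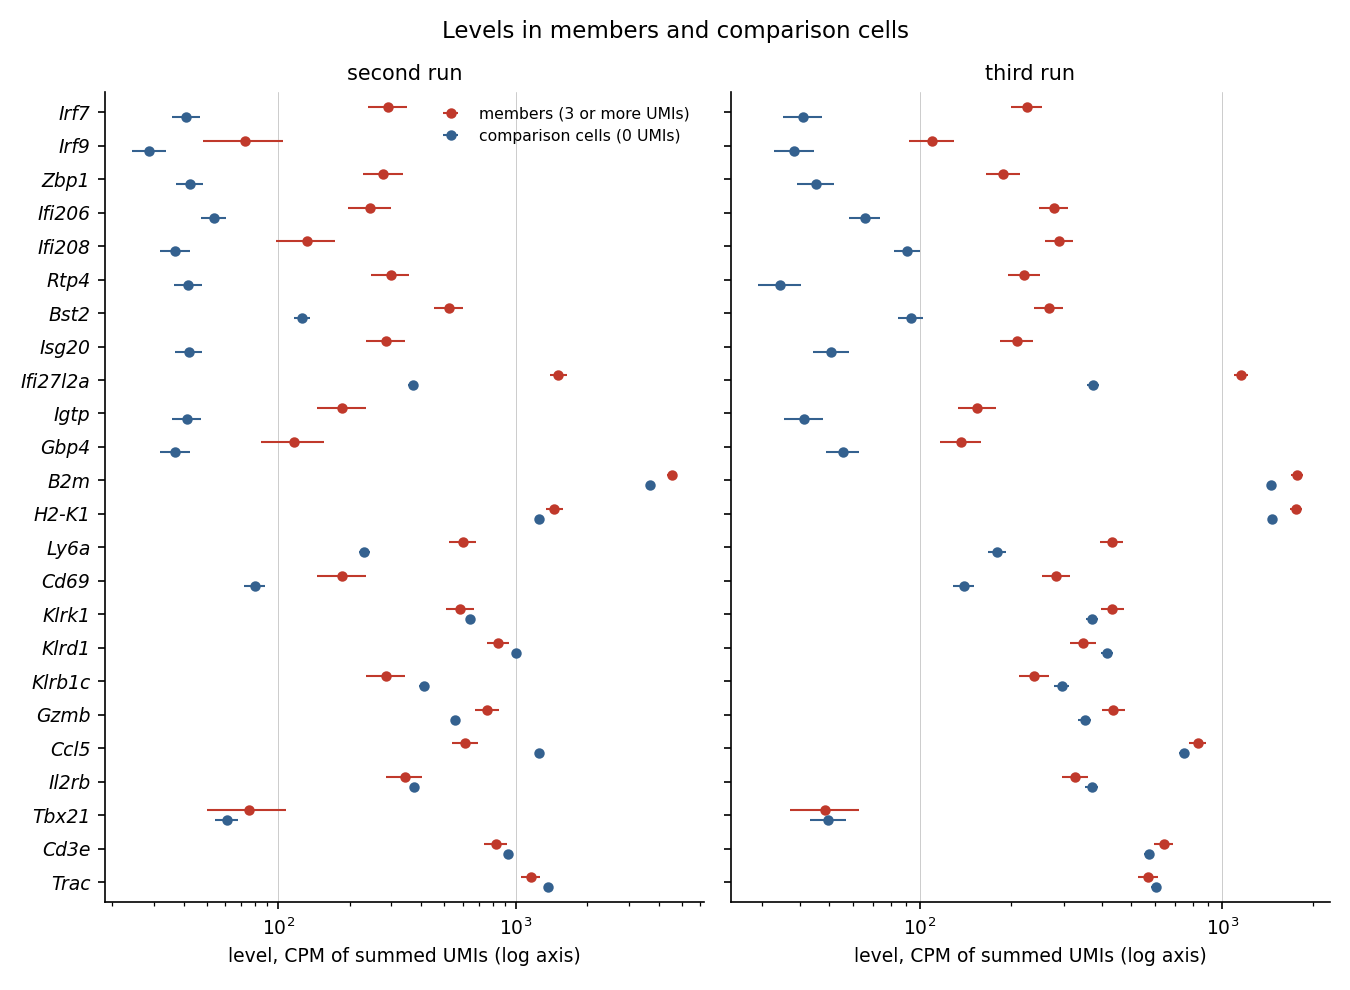
Levels in CPM of summed UMIs (log axis) for single genes in members and comparison cells of each run, with exact Poisson 95% intervals. The interferon genes from Irf7 to Gbp4, with Ly6a and Cd69, lie apart in both runs, while the T cell receptor and lineage genes lie closer together and Ccl5 changes its order between the runs.

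Of 8 eligible nucleic acid sensors, 6 were called higher. They were Ddx58, which encodes the RNA sensor RIG-I, and Ifi203, Ifi206, Ifi208, Ifi209 and Ifi213 of the Ifi200 family of DNA-binding proteins, which lie together on chromosome 1. Ifi206 was at 243 and 53.6 CPM in members and comparison cells of the second run and at 277 and 65.7 CPM in the third. Ifi208 was at 132 and 36.8 CPM and at 289 and 90.5 CPM, ratios of 3.59-fold (2.58 to 4.91) and 3.19-fold (2.76 to 3.70). Mndal, another member of this family, was 2.46-fold higher in the second run and 1.94-fold in the third and missed the threshold there. Genes of this family resemble each other, as do Ifit3 and Ifit3b and the guanylate binding proteins, and reads that fit several copies may have been lost or split, so their separate levels are uncertain.

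The guanylate binding proteins and immunity related GTPases, which attack the vacuoles of intracellular microbes and are known targets of type I and type II interferon, were called in 7 of 8 cases. Igtp was at 186 and 41.2 CPM in the second run and at 155 and 41.3 CPM in the third, the largest ratios among the eligible genes of this list in both runs (4.52-fold and 3.75-fold). Gbp4 was at 116 and 36.8 CPM and at 137 and 55.4 CPM. Gbp2, Gbp7, Gbp9, Irgm1 and Ifi47 were the other called genes, and Gbp8 reached 1.70-fold and 1.82-fold. The median log2 ratio of the list was 1.62 and 1.16.

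Several well known interferon genes did not reach the filter. Without the filter, 239 of 12738 genes were called higher, and 58 of them were in the 4 interferon lists. Not all genes below the filter were higher in members. Oas1c was at 0.866-fold and 1.18-fold in the second and the third run, and Slfn9 at 0.959-fold and 1.22-fold. Trim14 was at 0.236-fold and 1.70-fold, and Ifitm1 at 7.67-fold and 0.291-fold. The genes named next were near 0 in comparison cells. Usp18, the protease that removes ISG15, was at 140 and 5.59 CPM in members and comparison cells of the second run and at 92.3 and 3.42 CPM in the third, ratios with intervals of 15.6-fold to 40.7-fold and 15.7-fold to 49.8-fold. Ifit3b was at 179 and 3.08 CPM and at 130 and 3.19 CPM, and Oasl1 at 62.1 and 2.12 CPM and at 48.6 and 2.51 CPM. Rsad2, which encodes viperin, an inhibitor of viral replication, was at 93.2 and 0.193 CPM in the second run, where comparison cells held a single UMI, and at 99.7 and 0.912 CPM in the third. Cxcl10, a chemokine that attracts CXCR3+ cells, was at 119 and 0.385 CPM and at 93.1 and 3.42 CPM. Its UMIs came from few members, 10 cells with 46 UMIs in the second run and 14 cells with 113 UMIs in the third, of which a single cell held 66.

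Genes of MHC class I presentation, which interferon raises in most cells, differed less. None of the 19 eligible genes passed the 2-fold limit in both runs. Since 0.971% of all eligible genes were called higher and 0.0226% lower, a count of 0 in this list and in those below is near the background and is not a result about the list. The median log2 ratio was 0.49 in the second run and 0.29 in the third, and 17 of the 19 were above 0 in both. B2m, the light chain of MHC class I, was at 4534 CPM (4324 to 4752) and 3690 CPM (3638 to 3743) in the second run, and at 1768 CPM (1694 to 1845) and 1447 CPM (1412 to 1483) in the third, 1.23-fold and 1.22-fold. H2-K1, a heavy chain, was 1.16-fold (1.06 to 1.27) and 1.20-fold (1.14 to 1.26) higher. Tap1, the peptide transporter, had the largest second-run ratio of the eligible genes at 2.68-fold (2.04 to 3.47) and was at 1.84-fold (1.53 to 2.21) in the third. H2-T23, which encodes the Qa-1 ligand of the CD94-NKG2 receptors, was at 1.57-fold and 1.88-fold.

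Type I and type III interferon transcripts were not detected in members at this depth. The 20 type I and type III interferon genes summed to 0 UMIs in members of both runs, which allows up to 7.76 and 2.47 CPM in the second and the third run (3 counts of the total). In all kept cells, they summed to 6, 7 and 10 UMIs in the first, the second and the third run. Ifng, the type II interferon, was present, at 148 CPM (112 to 191) in members and 116 CPM (107 to 125) in comparison cells of the second run and at 182 CPM (159 to 208) and 195 CPM (183 to 209) in those of the third. The receptor subunits Ifnar1, Ifnar2 and Ifngr1 and the kinase Jak1 were eligible, and none of the 5 eligible genes of the receptor list was called. Ifngr1 was at 448 and 350 CPM and at 339 and 268 CPM. Ifnar1 was at 51.8 and 43.8 CPM and at 52.7 and 55.0 CPM. None of the 5 eligible inhibitors of interferon signaling was called. Socs1 was 1.30-fold and 1.32-fold higher.

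Outside the interferon and GTPase lists, Ly6a and Cd69 were the only called genes among the 19 eligible ones of the homing, memory and cytokine receptor list. Both are known to respond to interferon as well as to other signals. Ly6a, which encodes Sca-1, was at 600 CPM (526 to 683) in members and 231 CPM (218 to 244) in comparison cells of the second run and at 432 CPM (396 to 470) and 180 CPM (168 to 193) in those of the third, 2.60-fold and 2.40-fold. Cd69, which holds lymphocytes in tissue by binding the S1P receptor, was at 186 CPM (146 to 235) and 79.6 CPM (72.1 to 87.7) and at 282 CPM (253 to 313) and 140 CPM (129 to 151), 2.34-fold and 2.02-fold. The ratio of Cd69 in the third run lay close to the limit, and the call was lost under several other settings. Ly6c2 was 1.28-fold and 1.24-fold higher and Il2rb, the β chain of the IL-2 and IL-15 receptors, was at 0.911-fold and 0.879-fold.

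**Figure D3:**
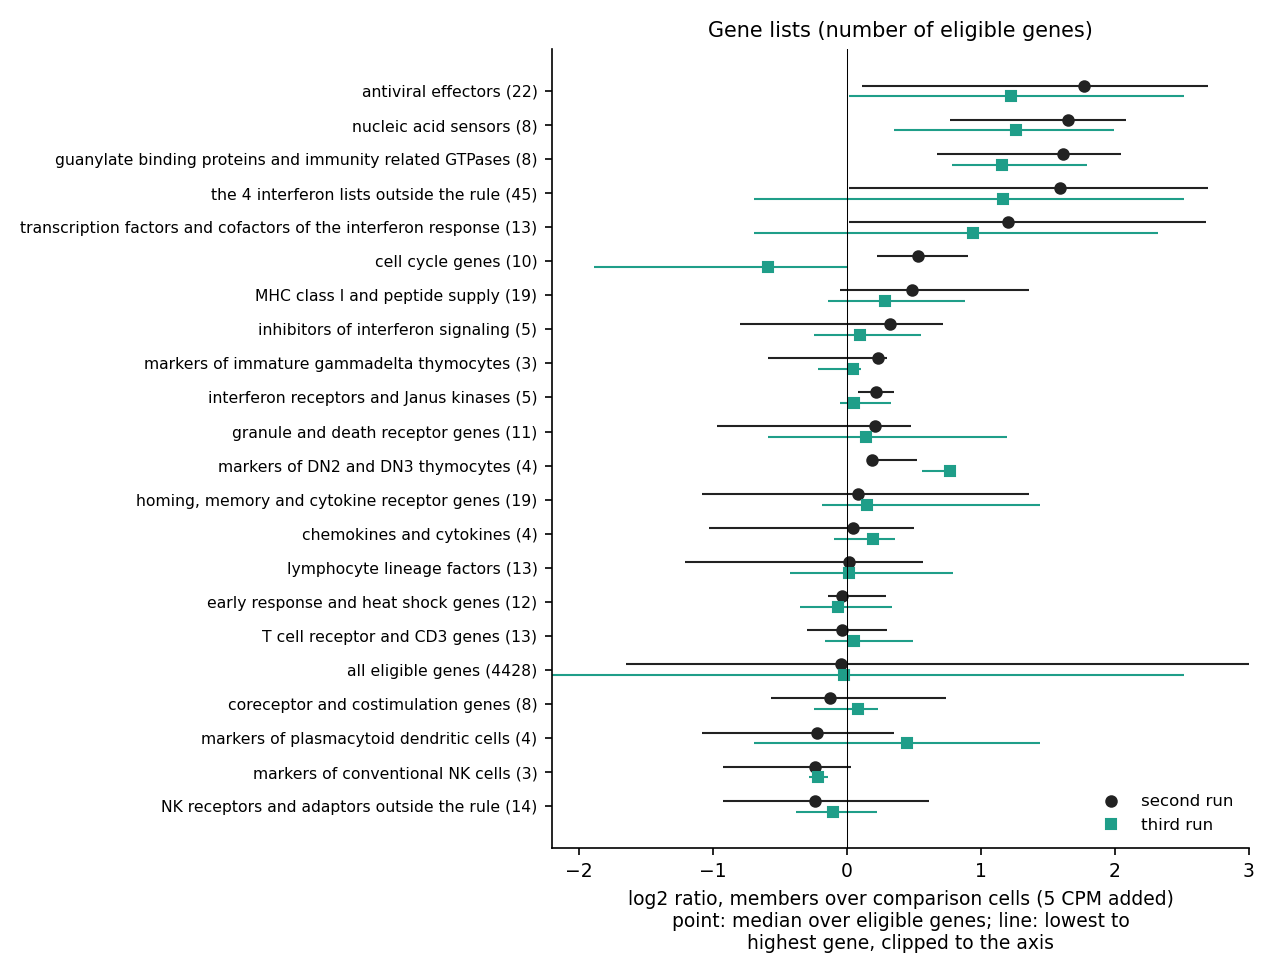
Median log2 ratio (point) and lowest to highest gene (line, clipped to the axis) of members over comparison cells for each gene list with at least 3 eligible genes, in the second and the third run, with the number of eligible genes in parentheses. The interferon lists and GTPases stand between 0.94 and 1.77, the NK receptor, T cell receptor and lineage lists lie within 0.25 of 0, and the cell cycle list lies on opposite sides of 0 in the runs.

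The NK receptor and adaptor genes outside the rule had a median log2 ratio of -0.24 in the second run and -0.10 in the third. Of the 14 eligible ones, 0 were called, beside 0.971% higher and 0.0226% lower over all eligible genes, so the count is near the background. Klrd1, a gene of the gate, was at 844 CPM (755 to 940) in members and 1007 CPM (980 to 1034) in comparison cells of the second run and at 346 CPM (314 to 381) and 415 CPM (397 to 435) in those of the third. Klrb1c was at 285 and 409 CPM and at 239 and 294 CPM, 0.695-fold (0.569 to 0.843) and 0.812-fold (0.712 to 0.923). Klra9, an inhibitory Ly49 receptor gene, was at 414 and 789 CPM in the second run and at 391 and 478 CPM in the third.

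Of 11 eligible granule and death receptor genes and 4 eligible chemokines and cytokines, 0 were called, which is again near the background. Gzmc, another granzyme gene, had the largest ratio of the granule list in the third run, at 32.1 and 11.2 CPM (2.88-fold), and was at 28.5 and 21.8 CPM (1.31-fold) in the second. Gzmb, which encodes granzyme B, was 1.36-fold (1.20 to 1.53) higher in members of the second run and 1.25-fold (1.13 to 1.38) higher in those of the third, and was seen in 70.3% and 61.3% of members and comparison cells and in 69.1% and 58.8%. Xcl1, a chemokine of NK and innate-like T cells, was 1.42-fold (1.23 to 1.63) and 1.29-fold (1.18 to 1.41) higher. Ccl5 and Gzma differed between runs in direction. Ccl5 was at 613 and 1254 CPM in members and comparison cells of the second run and at 829 and 746 CPM in those of the third, and Gzma was at 186 and 370 CPM and at 509 and 460 CPM.

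Members were found among cells with 3 or more and with fewer Ccl5 UMIs and among cells with and without Gzmb or Cxcr3 UMIs. Cells with 3 or more Ccl5 UMIs made up 17.8% (10.9 to 26.7) of members and 24.8% (22.6 to 27.0) of comparison cells in the second run and 26.9% (20.4 to 34.1) and 23.9% (20.5 to 27.5) in the third. The 45 eligible interferon genes summed to 9228 CPM in the Ccl5-high members and 11045 CPM in the other members of the second run, and to 9847 and 10620 CPM in those of the third. Members with a Gzmb UMI held 12621 and 11050 CPM in the second and the third run, and members without one held 7355 and 8994 CPM. Cells with a UMI of Cxcr3, a chemokine receptor gene, made up 42.6% (32.8 to 52.8) of members and 39.9% (37.5 to 42.4) of comparison cells in the second run and 53.1% (45.5 to 60.7) and 58.8% (54.8 to 62.8) in the third. Members with and without a Cxcr3 UMI held 11063 and 10459 CPM of the interferon genes in the second run and 10190 and 10635 CPM in the third, so both the shares and the levels lay on opposite sides in the 2 runs. In comparison cells, each of these classes held between 4165 and 5014 CPM.

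The medians of the lineage factors and of the T cell receptor and CD3 genes lay between -0.03 and 0.06 on the log2 scale. Of 13 eligible genes in each list and of 8 eligible coreceptor and costimulation genes, 0 were called, near the background share. Tbx21, the type 1 factor T-bet, was at 75.1 and 60.7 CPM in the second run and at 48.6 and 49.7 CPM in the third. Trac, a gene of the gate, was at 1159 and 1368 CPM and at 567 and 602 CPM, and Cd3e at 826 and 930 CPM and at 641 and 574 CPM. Trbc1 and Trbc2 were present at 1046 and 1302 CPM in second-run members, although the sort removed cells with TCRβ on the surface. Of 12 eligible early response and heat shock genes, 0 were called, with median log2 ratios of -0.03 and -0.07.

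The single gene called lower was Nus1, which encodes a subunit of the enzyme for dolichol synthesis, at 12.9 and 29.7 CPM in the second run and at 19.0 and 42.2 CPM in the third. It rested on few UMIs and its call was lost under several other settings. The next genes by the smaller of their 2 ratios included Srm, the spermidine synthase, at 41.4 and 89.2 CPM and at 31.3 and 59.1 CPM, and Ddx21, a nucleolar RNA helicase, at 80.2 and 143 CPM and at 110 and 192 CPM. The other genes among the 15 lowest were Sypl, Gusb, Gart, Socs2, Eif4ebp1, Rexo2, Mthfd1, Nop16, Ppat, Gnl3, Plpbp and Osbpl3. None of these 12 was called, and they are given as names only.

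Signal outside the rule also varied from cell to cell. After thinning to 2000 UMIs, members held a UMI of 13 of the 45 interferon genes in the median in both runs, with quartiles of 9 and 18 in the second run and 11 and 17 in the third. Comparison cells held 6 (4 to 8) and 7 (5 to 9). In the second run, 62.4% of members were above the 95th percentile of comparison cells, which was 11 genes, and in the third 49.7% were above 13 genes. The distributions overlapped, and the lowest members held 3 and 4 genes, within the range of comparison cells.

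**Figure D4:**
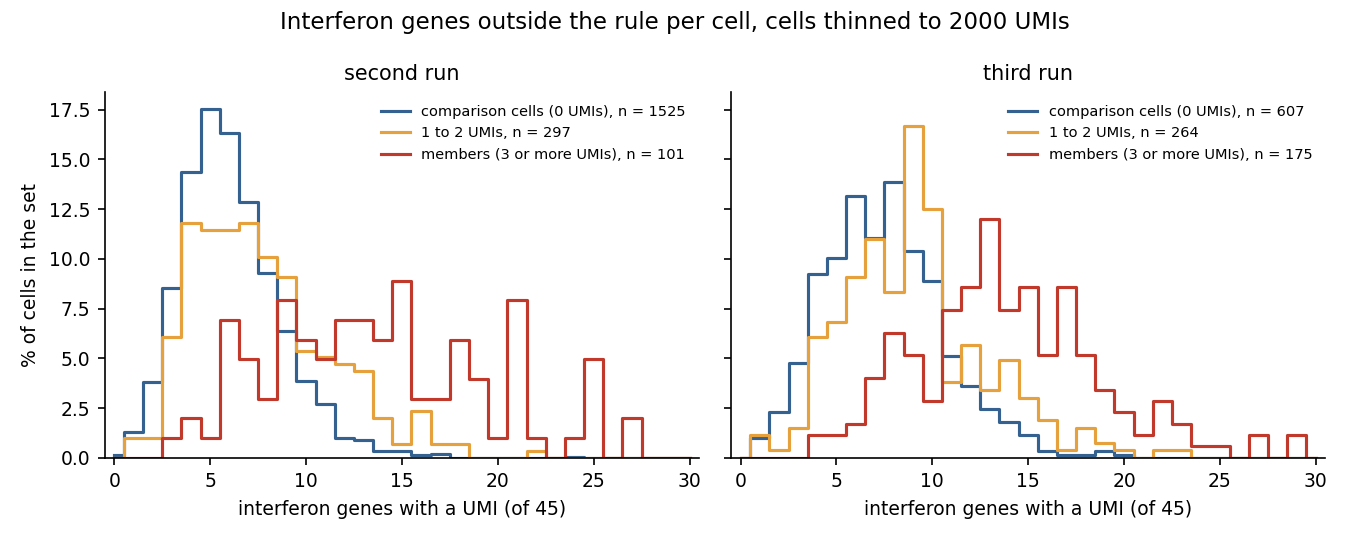
Number of the 45 eligible interferon genes outside the rule with at least 1 UMI in a cell (horizontal axis) and percentage of cells of each set (vertical axis), after each cell was thinned to 2000 UMIs, for members, base-gate cells with 1 to 2 UMIs of the rule genes, and comparison cells. The members peak to the right, with a median of 13 in both runs, and overlap the comparison cells, whose medians are 6 and 7.

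The level of the 45 genes was higher in each further class of the rule sum. In the second run, they summed to 4313 CPM (4257 to 4370) in cells with 0 UMIs, 5066 CPM (4942 to 5192) with 1 to 2, 8234 CPM (7820 to 8663) with 3 to 5 and 12877 CPM (12391 to 13377) with 6 or more. In the third run, the levels were 4733, 5865, 8212 and 12151 CPM. At the threshold itself, the counting intervals were apart in the second run and overlapped in the third. Cells with exactly 2 UMIs held 6189 CPM (5890 to 6500) and those with exactly 3 held 7777 CPM (7117 to 8481) in the second run, and they held 7243 CPM (7010 to 7481) and 7276 CPM (6951 to 7613) in the third. Ptcra cells outside the gate held 1997 and 2450 CPM, below the comparison cells of either run.

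Along the same classes, Cd69 was at 79.6, 98.8, 150 and 219 CPM in the second run and at 140, 148, 189 and 357 CPM in the third. Gzmb was at 557, 507, 548 and 938 CPM in the second run and at 351, 365, 339 and 515 CPM in the third, so its higher level in members came from cells with 6 or more UMIs of the rule genes.

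**Figure D5:**
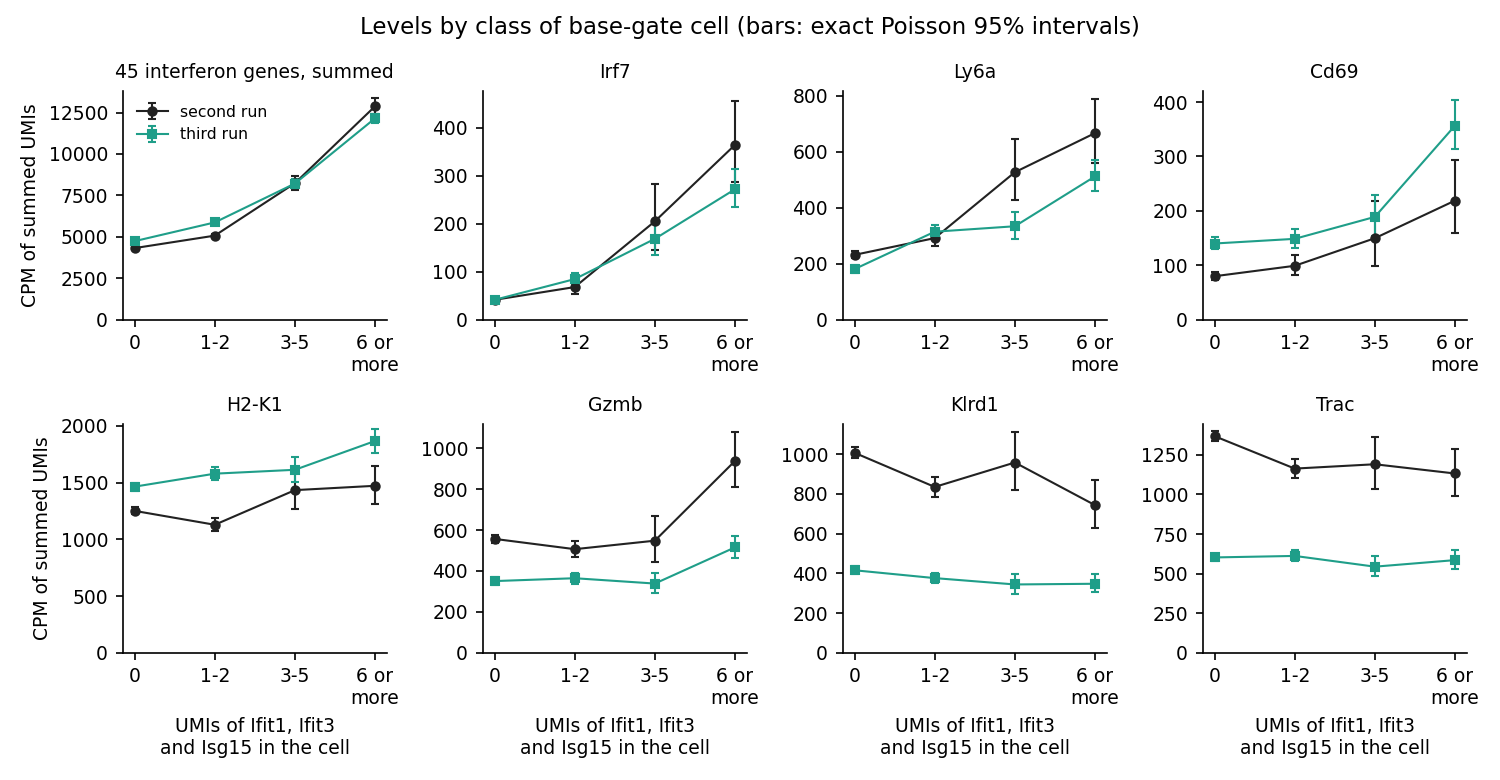
Level in CPM of summed UMIs (vertical axes, starting at 0) in base-gate cells grouped by their UMIs of Ifit1, Ifit3 and Isg15 (horizontal axes), for the 45 summed interferon genes and for 7 single genes, with exact Poisson 95% intervals. The summed genes, H2-K1, Irf7, Ly6a and Cd69 are highest at 6 or more UMIs in both runs, as is Gzmb, which is at a similar level in the other 3 classes, and Klrd1 and Trac are not highest there.

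Among the genes called higher, 32 of 43 were in the promoter table and 13 of these held a match to the response element (40.6%), as did 127 of 3583 eligible genes (3.54%). The 13 were Bst2, Gbp2, Gbp7, Ifi203, Ifi206, Ifi208, Ifi213, Igtp, Irgm1, Phf11b, Slfn8, Trim12c and Trim30a. Irf7, with one of the largest ratios, held none of these letters in the window, and of the eligible MHC class I genes B2m, H2-T22 and H2-T23 held a match.

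Markers of other cell types were summed over each list to check the label. Siglech and Cox6a2, which define plasmacytoid dendritic cells, were at 0 in members of both runs, as were Csf1r, Itgam, Adgre1, Xcr1, S100a8 and S100a9 of myeloid and dendritic cells. Of these genes, Siglech, Adgre1 and Xcr1 were also at 0 in comparison cells of the second run. Adgre1, Xcr1, S100a8 and S100a9 were also at 0 in those of the third, so these zeros do not set members apart. The 8 markers of plasmacytoid dendritic cells summed to 391 and 385 CPM in members and comparison cells of the second run and to 358 and 253 CPM in those of the third, and the most abundant was Ly6d, which lymphocytes also express. Of the 4 eligible genes of this list, 3 were above 0 in the third run, with a median log2 ratio of 0.45. Their highest ratio there was that of Ccr9, at 10.4 and 27.6 CPM in the second run and at 77.5 and 25.3 CPM in the third. The 12 myeloid markers summed to 194 and 190 CPM and to 166 and 173 CPM, led by Cst3. The 8 B cell markers summed to 455 and 248 CPM in the second run, led in members by Cd74 of the immunoglobulin-rich cell, and to 265 and 262 CPM in the third, led by Ighm. In the second run, Ms4a1 and Pax5 were at 0 in members and in comparison cells. None of the 8 markers was at 0 in either set of the third run.

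The 5 markers of immature γδ thymocytes summed to 714 and 624 CPM in the second run and to 312 and 293 CPM in the third, led by Tcrg-C1. The markers of type 17 lymphocytes, group 2 innate lymphoid cells, erythroid cells and stroma each summed to at most 77.1 CPM in either set of either run.

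The 7 markers of conventional NK cells summed to 826 and 1194 CPM in the second run and to 784 and 931 CPM in the third. In kept cells outside the base gate, they summed to 82.3 and 102 CPM. Klra9 led the list in members, at 414 and 391 CPM, and the other markers made up the rest of each sum. Single markers were low within this list. Eomes, a defining factor of NK cells, was at 0 and 1.73 CPM in the second run and at 3.30 and 10.0 CPM in the third. Itgam was at 0 in members of both runs. The list as a whole was thus higher in members and comparison cells than outside the gate, which itself reads NK receptor transcripts. The 10 markers of DN2 and DN3 thymocytes summed to 652 CPM (574 to 738) and 523 CPM (503 to 543) in the second run and to 522 CPM (483 to 565) and 284 CPM (269 to 300) in the third, led by Dntt. Ptcra was at 0 in second-run members, and in members of the third run it was at 28.8 CPM against 11.6 CPM, and Rag1 at 37.9 CPM against 5.93 CPM. The Rag1 UMIs came from 9 of the 175 members. Without base-gate cells that held a Rag1 or Ptcra UMI, 49 genes were higher in members, including all 43. Of the members, 11 of 101 (10.9%) and 22 of 175 (12.6%) were among the 750 cells with the highest doublet score of their run, beside 141 of 1525 and 51 of 607 comparison cells. Without those 750 cells, 52 genes were higher, including 42 of the 43. Without base-gate cells that held 2 or more UMIs summed over defining B cell, plasmacytoid dendritic cell, myeloid and erythroid markers, 98 and 166 members remained and 47 genes were higher, including all 43. The part of the NK cell and γδ marker lists in the result was not tested.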

How the data were processed

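For each library, the authors ran Cell Ranger against mm10 and deposited raw UMI counts per gene and cell, without normalization or removal of doublets. The header of the third run gives version 4.0.0, and which version made the second run is not given in the sources used here. The submitters' processing notes also name R 3.6.3 and Seurat 2.3. The deposited counts summed to 39947415, 52797915 and 98533329 UMIs, in 5527, 8887 and 8869 cells, with medians of 5982, 4830 and 8343 UMIs per cell. The methods name 2 kits (V2 or V3.1) without assigning them, and no column was left unmapped.

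Kept cells had between 500 and 5000 genes and a mitochondrial share no higher than 7% (8852 in the second run and 7511 in the third). Genes were joined between runs by Ensembl ID. Counts were summed per run and cell set and scaled to CPM with Python 3.11.15, numpy 2.4.6 and scipy 1.17.1. Intervals are exact Poisson, Clopper-Pearson or, for ratios, conditional binomial, at 95%, and cover counting error alone. With 1 library per run and members chosen by these values, no p-value was computed. Thinning drew 2000 UMIs per cell without replacement (seed 1). Doublets were scored with Scrublet in scanpy 1.11.5 and kept in the main values. The calling code was tested on simulated data. Some genes counted in the lists are not reported here by name.

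The members and the gene lists were chosen with earlier results of these data known. Genes are named when they belong to the rule, lead an eligible list by level or ratio, are among the 15 largest ratios in either direction, or lead a list of markers of other cell types. Names outside these groups were chosen after their values were seen. The motif search and the alternatives on single runs, on Rag1 or Ptcra cells, on the deepest members and on immunoglobulin-rich cells were added after seeing the data.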

Additional observations from a re-analysis of the deposited data

Results flagged for a closer look

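The cell cycle genes lay on opposite sides in the runs, with a median log2 ratio of members over comparison cells of 0.53 in the second run, where 10 of 10 eligible genes were above 0, and -0.59 in the third, where 1 of 10 was. Cdca8 (1.07 and -1.24) and Pclaf (1.12 and -1.16), both genes of dividing cells, differed in the same way. The difference between runs was not tested. Cells with 5 or more UMIs summed over Mki67, Top2a, Ccnb2, Birc5 and Cdk1 numbered 4 of 101 members (3.96%, 1.09 to 9.83) and 29 of 1525 comparison cells (1.90%, 1.28 to 2.72) in the second run, and 4 of 175 members (2.29%, 0.626 to 5.75) and 27 of 607 comparison cells (4.45%, 2.95 to 6.41) in the third. The 4 second-run members held 88.1% of the UMIs of these 5 genes, so the levels rest on few cells.

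Ccr9, a chemokine receptor of thymocytes, had log2 ratios of -1.08 in the second run, where members held 4 UMIs, and 1.44 in the third, where 21 members held 94 UMIs and a single cell held 28. This difference was not tested. Igha (8.66 and -5.54), Igkc (8.09 and -4.49) and Jchain (7.42 and -4.49) also turned between the runs, and these values are those of the single immunoglobulin-rich cells described above. That difference was not tested either.

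In the first run, which held 4 base-gate cells and no member, 138 of 5516 kept cells (2.50%, 2.11 to 2.95) had 3 or more UMIs of Ifit1, Ifit3 and Isg15. These cells were outside the comparison.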

How the results depend on the processing

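No paired analysis was possible because the labels carry no replicate numbers and the values come from no test, and members were compared with comparison cells of the same run throughout. No called gene changed sign under the alternatives, but the balance of higher and lower genes turned without the filter and in the second run alone (counts below), and among uncalled results given above, the cell cycle list, Ccl5, Gzma, Ifng, Ccr9, Klrk1, Cd3e, Tbx21, Trbc1, Irf3, Irf8 and Ifnar1 were among those on opposite sides in the second and the third run. In all, 42 or 43 of the 43 genes called higher were found again with a mitochondrial limit of 5%, without the 750 cells with the highest doublet scores, with a member threshold of 5 UMIs, with an NK receptor threshold of 3 UMIs, without cells with markers of other types, with scaling by the median ratio, and with the mean of single-cell CPM. Of the 43, 35 were found with a threshold of 2 UMIs, 39 with comparison cells matched by UMI total, 41 with thinned cells and 39 with all other base-gate cells as comparison. The filter mattered most. Without it, 239 of 12738 genes were higher and 933 lower, among them 58 interferon genes, 1 MHC class I gene, 2 NK receptor genes and 1 cytotoxic gene. The lower genes of this setting include any with UMIs in comparison cells and none in members of both runs, and these were not counted apart. The background shares given above are for 4428 genes and do not apply to these list counts. With a filter of 50 CPM, 20 of 2050 genes were higher (15 interferon genes) and 0 lower. With a fold of 1.5, 84 of 4428 genes were higher and 31 lower, with 5 MHC class I genes and 1 cytotoxic gene. The second run alone gave 87 higher, 116 lower and 2 MHC class I genes, and the third alone 22 lower and 1 cytotoxic gene. A member threshold of 2 UMIs gave 164 second-run members and 0 lower genes, and a threshold of 5 UMIs gave 66 members, 6 lower genes and 1 MHC class I gene. Thinning gave 18 lower genes and 1 MHC class I gene. The lower genes numbered 2 with the 5% mitochondrial limit, with 3 NK receptor UMIs, without cells with markers of other types and without the deepest members, 4 without high doublet scores, 3 with matched comparison cells and 6 with the mean of single-cell CPM. The cause was not tested. Cd69 fell short of the limit under 5 alternatives (log2 ratio 0.73 to 0.97 in the smaller run), Nus1 under 5 and Ly6a under 1 (0.94, all other base-gate cells as comparison).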

Other observations

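Cells with 3 or more UMIs of Ifit1, Ifit3 and Isg15 also occurred outside the base gate. After thinning to 2000 UMIs, they made up 0.713% (0.462 to 1.05) of cells with at least 3 Trdc UMIs in the second run and 1.26% (0.895 to 1.71) in the third. Among cells with at least 3 UMIs of Cd79a and Cd79b, the signaling chains of the B cell receptor, there was 1 of 50 cells in the second run and 4.24% (2.70 to 6.29) of 543 cells in the third. In the third run, these Cd79a and Cd79b cells held the 45 interferon genes at 4960 CPM (4895 to 5026), beside 4733 CPM (4669 to 4798) in comparison cells. In the second run the order was reversed, with 2338 CPM (2213 to 2469) beside 4313 CPM (4257 to 4370). Ly6a was at 636 CPM (612 to 659) in the third-run Cd79a and Cd79b cells, beside 432 CPM (396 to 470) in members. In the second run, Ly6a was at 671 CPM (604 to 742) beside 600 CPM (526 to 683).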
